A study of Mus musculus with 82 samples.

Results

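Collagens are the genes of the deposited count table whose symbol reads Col, a number, a and a number, and 44 of the 47480 genes of the table matched. All 44 passed the filter on low counts and are among the 22847 genes tested. By the kind of assembly their chains form, 8 are fibrillar, 6 belong to the type IV network of basement membranes, 7 are cartilage types, 6 beaded filament types, 6 fibril-associated types, 2 short-chain network types, 2 multiplexins, 4 transmembrane types, and 3 were placed together as the anchoring fibril chain and others. RNA had been sequenced from 82 untreated mouse mammary tumours of 13 models. The models on BALB/c were 2153 (n = 7 libraries), 2208 (n = 12), 2224 (n = 4), 2225 (n = 10), 2250 (n = 11), 2336 (n = 5), 4T1 (n = 5), 9263 (n = 7) and T12 (n = 3), those on FVB were KPB1-A (n = 2), MMTV-NEU (n = 8) and MMTV-PYMT (n = 5), and E0771 (n = 3) was on C57BL/6. Strain is thus nested in model and the 2 cannot be told apart. The labels give tissue, strain and model name, but neither genotype nor age, and do not say whether libraries of a model came from separate animals, so p-values measure the spread between these libraries, which may be technical. By their names, 4T1 and E0771 are mouse mammary carcinoma lines grown as grafts, and MMTV-NEU and MMTV-PYMT carry an oncogene under the promoter of the mouse mammary tumour virus, which acts mainly in mammary epithelium, while the labels say no more of the other models. No untreated normal tissue is among the samples used here, and each model was set against the other 12.

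Counts per library summed to between 14444938 and 132712507 with a median of 58193845. The summed level of 10 epithelial markers was 234 to 339 CPM (CPM being counts scaled to the size of the library, here by TMM) in T12 and 367 to 398 CPM in E0771, against at least 894 CPM in the other models, with Epcam near 0 in both (0.66 and 0.948 CPM). In 2250, replicate 10 stood apart with a fibroblast marker sum of 169 CPM and an endothelial sum of 44.5 CPM, the lowest of the 11 libraries. In 9263, 3 libraries had fibroblast marker sums of 525 to 916 CPM and 4 had 260 to 341 CPM.

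Collagens are secreted or membrane-bound proteins in which a trio of chains winds into a triple helix, some from 1 gene and others from several. Fibrillar collagens, above all types I, III and V, are made mainly by fibroblasts and form the fibres of connective tissue, while type IV collagen is the mesh of the basement membrane beneath epithelium and around vessels. Types II, IX, X and XI are best known from cartilage, where type IX coats the surface of type II and XI fibrils. In mammary tumours the fibrillar types are known as the main product of the reactive stroma.

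Type IV genes lie in head-to-head pairs, which is why the sequences between or before their starts are shown first. By GENCODE M21 on mm10 the transcripts of Col4a1 and Col4a2 overlap by 22 bases at their starts (an interval of -22), Col4a4 and Col4a3 start 71 bases apart, and Col4a6 and Col4a5 start 1308 bases apart. The RefSeq promoter table (GRCm38.p6) held 35 of the 44 collagens in 38 windows, of which the 250 bases before the start were used and any annotated exon was cut away. Col9a1 and Col11a1 are shown because both were highest in MMTV-NEU and low in the same 3 models, and Col9a1 has a pair of starts in the table. Capitals mark matches, on either strand, to the CCAAT box, the GC box GGGCGG, the SOX-type motif ACAAAG with its variant ACAATG, or the TATA box TATAAA.
Col4a4 to Col4a3, chr1:82586850-82586920, minus strand: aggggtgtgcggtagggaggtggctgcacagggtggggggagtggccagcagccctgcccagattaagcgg
Col4a6, chrX:141474077-141474326, minus strand: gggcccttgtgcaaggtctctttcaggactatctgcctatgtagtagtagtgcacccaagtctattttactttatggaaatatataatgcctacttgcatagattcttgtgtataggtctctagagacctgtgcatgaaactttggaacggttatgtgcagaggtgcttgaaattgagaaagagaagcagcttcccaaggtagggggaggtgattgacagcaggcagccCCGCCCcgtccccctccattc
Col4a5, chrX:141475169-141475384, plus strand: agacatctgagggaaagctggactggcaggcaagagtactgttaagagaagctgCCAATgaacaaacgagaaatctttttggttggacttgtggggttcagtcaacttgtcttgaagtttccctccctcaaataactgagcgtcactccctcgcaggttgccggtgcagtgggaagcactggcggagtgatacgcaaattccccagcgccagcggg
Col9a1 upstream start, chr1:24177360-24177609, plus strand: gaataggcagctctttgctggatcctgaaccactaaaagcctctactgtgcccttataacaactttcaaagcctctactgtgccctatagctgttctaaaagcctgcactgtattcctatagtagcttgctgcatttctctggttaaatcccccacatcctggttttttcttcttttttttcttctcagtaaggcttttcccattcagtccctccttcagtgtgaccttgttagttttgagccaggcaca
Col9a1 downstream start, chr1:24194953-24195186, plus strand: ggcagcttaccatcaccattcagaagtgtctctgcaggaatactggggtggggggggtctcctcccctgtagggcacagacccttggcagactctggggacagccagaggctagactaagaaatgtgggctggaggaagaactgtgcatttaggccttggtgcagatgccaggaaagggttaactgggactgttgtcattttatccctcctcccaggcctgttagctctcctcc
Col11a1, chr3:114030290-114030539, plus strand: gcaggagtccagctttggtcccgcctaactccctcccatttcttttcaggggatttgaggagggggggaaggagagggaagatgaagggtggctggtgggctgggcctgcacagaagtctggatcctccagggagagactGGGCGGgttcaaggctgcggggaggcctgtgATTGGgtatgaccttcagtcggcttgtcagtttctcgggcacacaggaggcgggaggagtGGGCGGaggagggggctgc
CCAAT was found once before Col4a5 and once before Col11a1, and GGGCGG once before Col4a6 and 2 times before Col11a1. Of all 32851 windows of 250 bases, 33.8% held CCAAT, 32.7% GGGCGG, 16.5% ACAAAG, 10.7% ACAATG and 12.4% TATAAA. In the 38 collagen windows these shares were 34.2%, 57.9%, 10.5%, 2.63% and 13.2%. Both sets of shares are of windows not cut at exons. The stretches shown for Col4a4, Col4a5 and the downstream start of Col9a1 were cut to 71, 216 and 234 bases, so the shares are no like measure for them. The 71 bases shared by Col4a4 and Col4a3 and both stretches before Col9a1 held none of the 5 motifs, which says only that these letters are not in these windows.

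Nearly every collagen differed among the models, and so did nearly every other gene. By the F test of edgeR 43 of 44 collagens passed at an adjusted p under 0.05, all but Col6a5 (adjusted p = 0.0751), beside 98.2% of all genes tested, so the count says nothing particular about collagens. Summed over the 44 genes, collagen RNA was highest in 2336 (16311 ± 2356 CPM, SD, n = 5) and lowest in MMTV-PYMT (4967 ± 2465, n = 5). In bulk tissue, fewer cells of a type and less RNA per cell cannot be told apart.

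Counts of collagens called against the other models went both ways. A call is an adjusted p under 0.05 by edgeR's quasi-likelihood test of a model against the unweighted mean of the other 12, adjusted by Benjamini-Hochberg over all genes tested. Here and below, ± is the SD over n libraries for a level and the standard error for a log2 difference. By this test, 21 of 44 collagens rose and 5 fell in 2208, beside 29.4% and 24.7% of all genes tested. In addition, 19 of 44 collagens rose and 1 fell in 2224, beside 24.0% and 14.8% of all genes tested, and 14 of 44 collagens rose and 2 fell in KPB1-A, beside 24.9% and 14.4% of all genes tested. Without replicate 2 of KPB1-A, 10 collagens were called there in place of 16. In these 3 models more collagens rose than fell, as was also true of all genes tested.
Likewise 18 of 44 collagens rose and 8 fell in 2225, beside 34.2% and 26.8% of all genes tested, and 16 of 44 collagens rose and 6 fell in 9263, beside 32.5% and 21.9% of all genes tested. The split was closer to even in 2 others, since 13 of 44 collagens rose and 9 fell in 2336, beside 30.2% and 25.4% of all genes tested, and 13 of 44 collagens rose and 11 fell in 4T1, beside 25.5% and 23.6% of all genes tested. In 2250 the counts were even, with 13 of 44 higher and 13 lower, beside 32.1% and 27.7%. The models in which more collagens fell than rose were E0771, MMTV-NEU, T12 and 2153. Among these, 7 of 44 collagens rose and 17 fell in E0771, beside 29.4% and 26.9% of all genes tested, and 13 of 44 collagens rose and 21 fell in MMTV-NEU, beside 34.0% and 28.4% of all genes tested. Further, 5 of 44 collagens rose and 12 fell in T12, beside 24.4% and 23.8% of all genes tested, and 11 of 44 collagens rose and 14 fell in 2153, beside 29.4% and 23.6% of all genes tested. In MMTV-PYMT 10 of 44 rose and 7 fell, beside 31.0% and 20.5%. The totals mix classes that moved in opposite directions: in MMTV-NEU, 6 of 8 fibrillar collagens fell and 4 of 6 type IV genes rose.

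**Figure D1:**
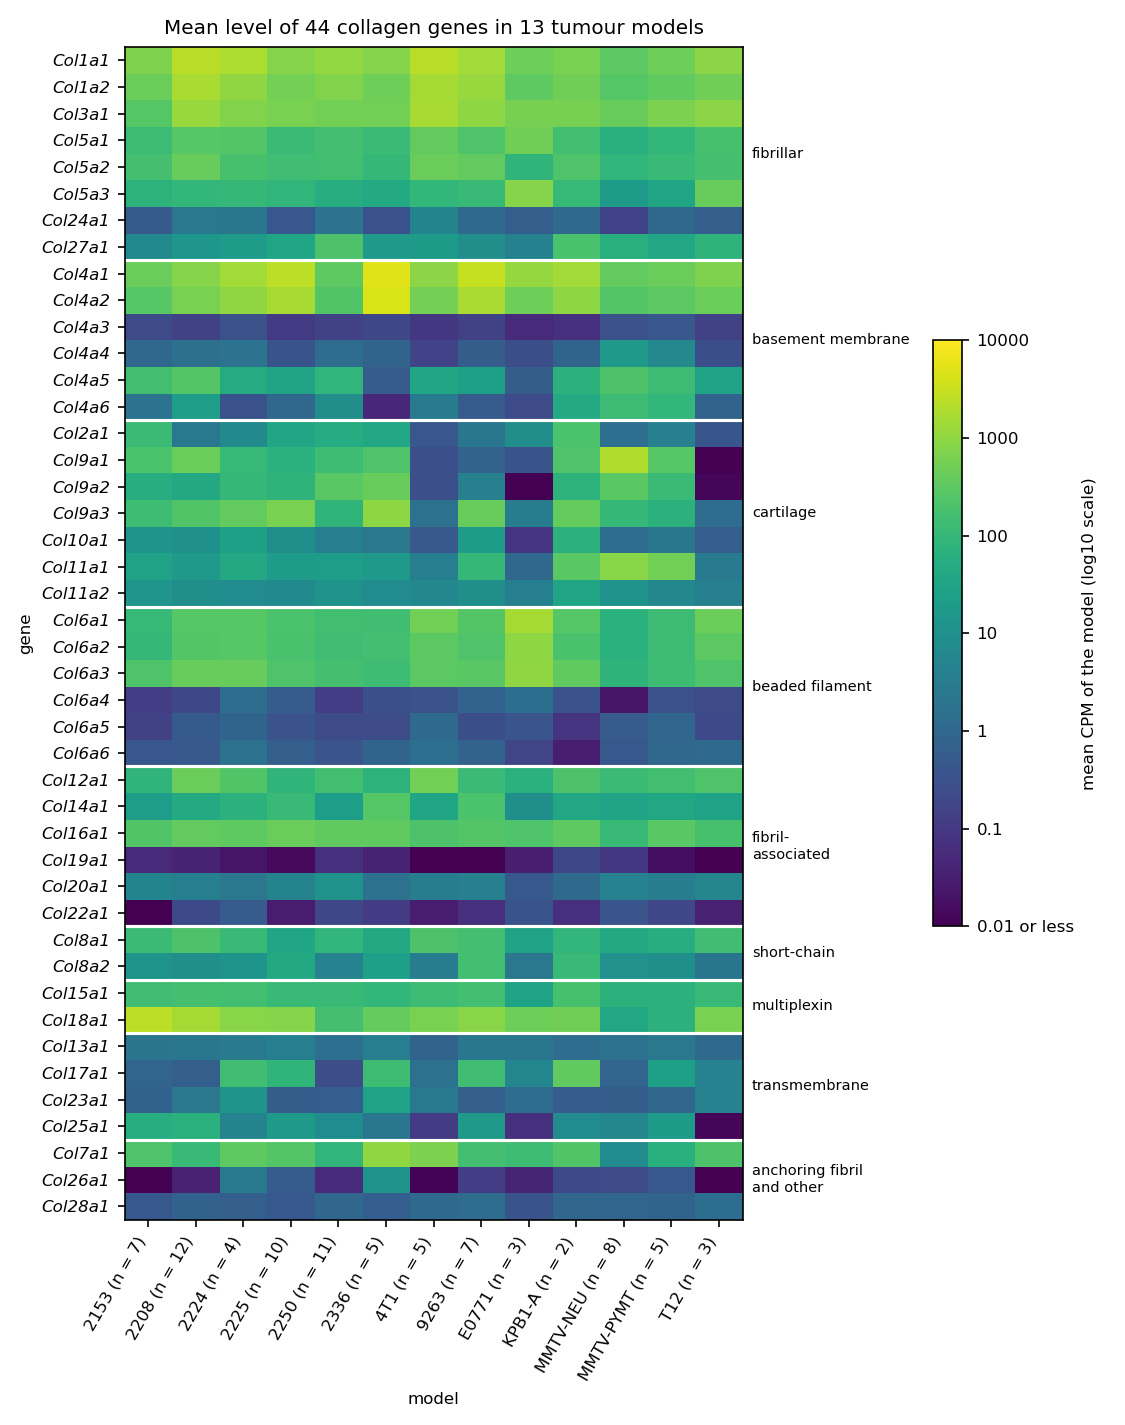
Mean level of each collagen gene (rows, grouped by class) in each model (columns), in CPM on a log10 colour scale with values of 0.01 or less in the darkest colour. Col9a1 is bright in MMTV-NEU (1894 CPM) and dark in T12, and Col4a1 and Col4a2 are brightest in 2336 (5124 and 4583 CPM).

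Fibrillar collagens were high in 4T1 and 2208 and low in MMTV-NEU. In 4T1, 6 of 8 rose and none fell, beside 25.5% higher and 23.6% lower of all genes tested, with a median log2 difference from the other models of 1.41 against -0.08 over all genes tested. In 2208, 6 rose and 1 fell (median 1.11 against -0.01, beside 29.4% and 24.7%), and in MMTV-NEU 1 rose and 6 fell (median -1.52 against -0.02, beside 34.0% and 28.4%). The summed fibrillar level was 6351 ± 1278 CPM in 4T1 (SD, n = 5), 6048 ± 2603 CPM in 2208 (n = 12) and 1189 ± 953 CPM in MMTV-NEU (n = 8).

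Type I collagen, the main protein of connective tissue fibres, is built from the products of Col1a1 (chr11:94936224-94953042) and Col1a2 (chr6:4504814-4541544). Col1a1 stood at 1129 at the lowest, 2024 at the median and 4817 CPM at the highest in the 12 libraries of 2208, and at 2845, 1849, 2325, 1911 and 2170.0 CPM in the 5 of 4T1. In the 8 libraries of MMTV-NEU it stood at 51.2 at the lowest, 278 at the median and 703 CPM at the highest, below every library of 2208 and 4T1. The log2 difference from the other models was 1.47 ± 0.28, adjusted p = 7.46e-06 in 2208, 1.40 ± 0.40 in 4T1 (adjusted p = 0.00209) and -1.68 ± 0.42 in MMTV-NEU (adjusted p = 3.95e-04). In 2224 the 4 libraries ran from 775 to 3088 CPM (1.11 ± 0.45, adjusted p = 0.041), a call that was lost under DESeq2, limma, without the filter, and without replicates 2, 3 or 4 (0.75 to 1.16). Each model in the order from 2208 to MMTV-NEU overlapped with the next, so the order of neighbouring models is not resolved. Col1a2 followed, with 1721 ± 777 CPM, n = 12 in 2208 (1.60 ± 0.27, adjusted p = 3.41e-07), 1566 ± 326 CPM, n = 5 in 4T1 and 258 ± 179 CPM, n = 8 in MMTV-NEU.

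Some libraries stood far below the rest of their model. In MMTV-PYMT Col1a1 stood at 760.5, 36.8, 498, 178 and 954 CPM, in KPB1-A at 126 and 1110.2 CPM, and in 9263 from 169 to 4307 CPM. Col3a1, the type III chain of elastic and young connective tissue (chr1:45311538-45349706), showed the same kind of scatter and was highest in 4T1 at 2519.7, 1143, 1586, 1558 and 1457 CPM (1.42 ± 0.45, adjusted p = 0.00616). It was lowest in 2153 at 181 at the lowest, 250.3 at the median and 342 CPM at the highest (-1.46 ± 0.51, adjusted p = 0.0117), a call lost under limma (log2 difference -1.09).

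The type V chains, minor components that set the width of type I fibrils, parted in E0771. Col5a3 (chr9:20770050-20815067) stood at 808, 748 and 920.4 CPM in E0771 and 386, 485 and 323 CPM in T12, and no library of any other model reached the lowest of T12. The log2 difference of Col5a3 was 3.40 ± 0.21, adjusted p = 2.04e-23 in E0771 and 2.26 ± 0.24 in T12 (adjusted p = 7.64e-13). It was lowest in MMTV-NEU (20.6 ± 11.2 CPM, n = 8) and MMTV-PYMT (33.6 ± 18.7 CPM, n = 5). Col5a1 was also highest in E0771 (501, 448 and 573 CPM, 1.67 ± 0.41, adjusted p = 3.21e-04), whereas Col5a2 had its lowest mean there (115, 66.4 and 74.6 CPM, -1.12 ± 0.47, adjusted p = 0.0377, a call lost under limma, without the filter and without replicates 2 or 3) and highest in 4T1 (437 ± 51.8 CPM, n = 5).

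The remaining fibrillar genes, Col24a1 and Col27a1, are low-level relatives of the classical types. Col24a1 stood at 5.55, 4.55, 5.88, 4.58 and 5.49 CPM in 4T1, above every library of the next model 2208 (2.70 ± 0.35, adjusted p = 3.92e-10), and at 0.163 ± 0.158 CPM, n = 8 in MMTV-NEU. Col27a1, read after its values were seen, did not follow the type I pattern: it was highest in 2250 (120.1 at the lowest, 173 at the median and 349.6 CPM at the highest, 3.17 ± 0.24, adjusted p = 1.83e-19) and KPB1-A (125 and 244 CPM), and 4.31 CPM in E0771.

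**Figure D2:**
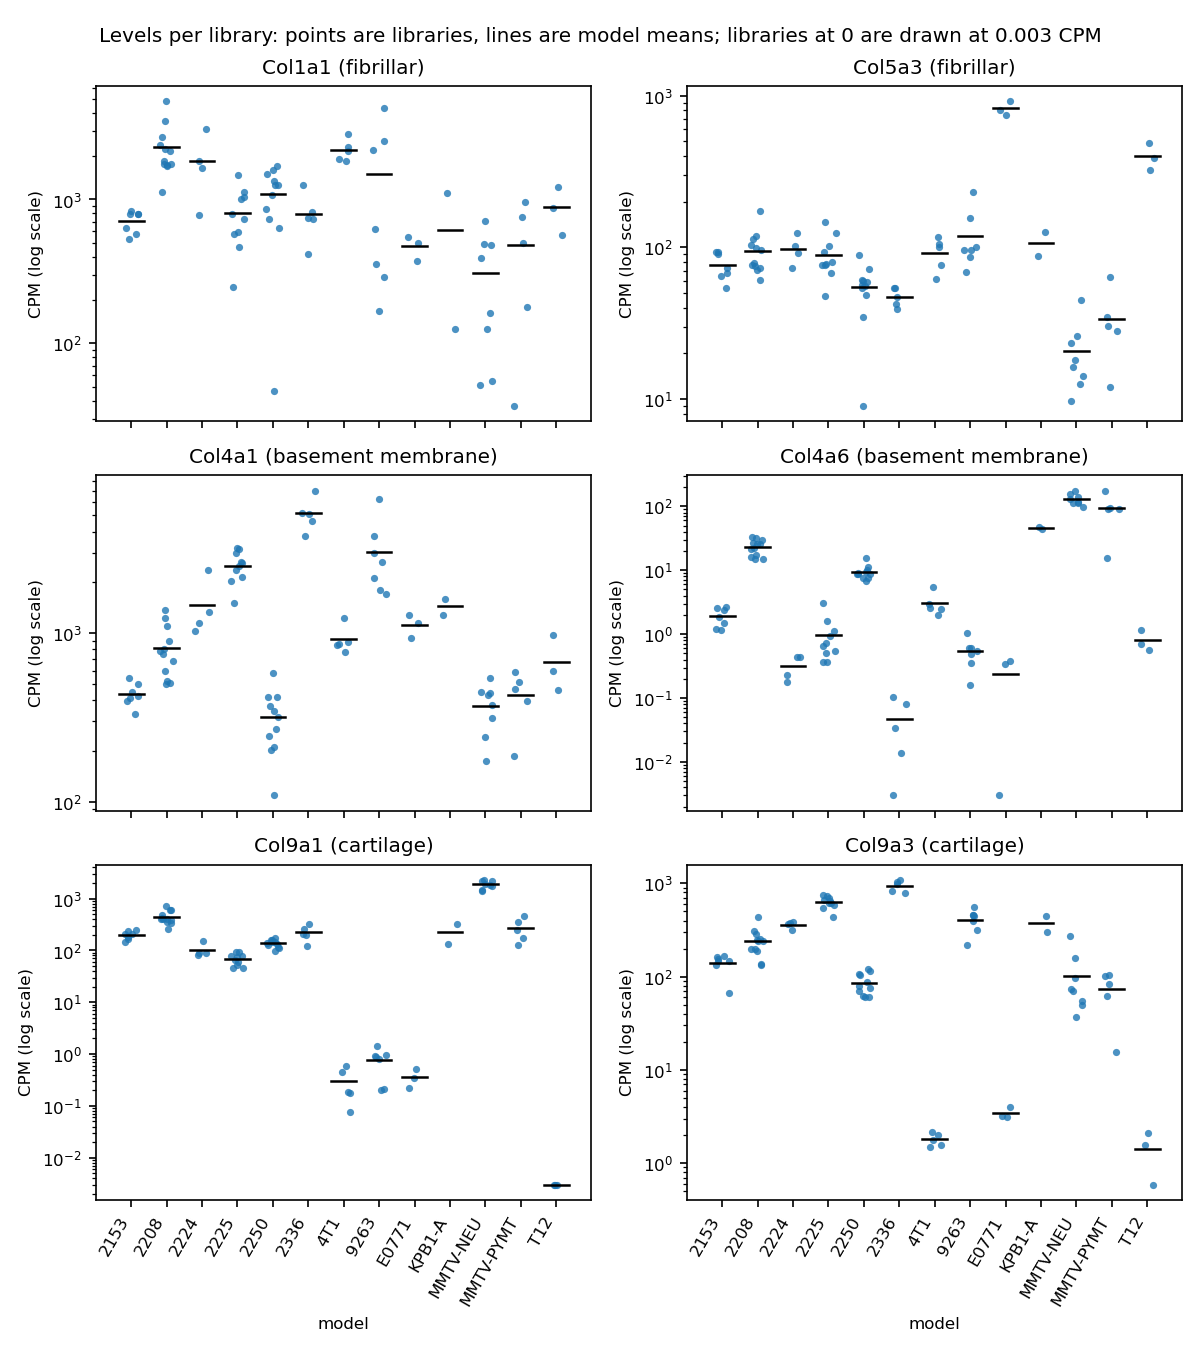
Level in CPM on a log scale (vertical axes) of 6 collagen genes in every library, by model, with lines at the model means; libraries at 0 are drawn at 0.003 CPM. Col1a1 overlaps between neighbouring models, whereas Col9a1 falls from 68.8 CPM in 2225 to 0.771 CPM in 9263 with no library in between.

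The basement membrane collagens did not share 1 order of models. Col4a1 (chr8:11198423-11312826) and Col4a2 (chr8:11312805-11449287), whose chains form the type IV network found in all basement membranes, were highest in 2336. The libraries of 2336 held 4608, 3753.7, 5191, 6996 and 5071 CPM of Col4a1, and 4031, 3213, 4617, 6547 and 4509.6 CPM of Col4a2. Both genes were also high in 9263 (3041 ± 1595 CPM, n = 7 and 1760.3 ± 768 CPM, n = 7) and 2225 (2512 ± 526 CPM, n = 10 and 1645 ± 340.3 CPM, n = 10).
The 2 genes moved together at the low end too. They were lowest in 2250, where Col4a1 stood at 109 at the lowest, 319 at the median and 580.3 CPM at the highest, and low in MMTV-NEU (371 ± 121 CPM, n = 8 of Col4a1). The log2 differences were 2.55 ± 0.18, adjusted p = 1.18e-21 for Col4a1 and 3.03 ± 0.16, adjusted p = 3.02e-28 for Col4a2 in 2336, and -1.80 ± 0.18, adjusted p = 3.86e-14 for Col4a1 in 2250. Without strand information, reads of the few bases that the 2 genes share cannot be assigned to either.

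Col4a5 (chrX:141475385-141689234) and Col4a6 (chrX:141165403-141474076), known from smooth muscle, skin and the mammary and kidney epithelium, followed other orders. Col4a5 was highest in 2208 (122 at the lowest, 261 at the median and 378 CPM at the highest) and MMTV-NEU (208 ± 39.8 CPM, n = 8). It was near 0 in 2336 (0.155, 0.261, 0.291, 1.05 and 0.869 CPM) and E0771 (1.16, 0.241 and 0.328 CPM), with no overlap with the next model 9263 at 26.3 CPM. The log2 difference was 3.11 ± 0.15, adjusted p = 2.59e-30 in 2208, -6.41 ± 0.41 in 2336 (adjusted p = 1.82e-23) and -6.41 ± 0.52 in E0771 (adjusted p = 4.99e-18, and -7.40 without replicate 1). The model with the most Col4a1 and Col4a2 was thus 1 of the 2 models with almost no Col4a5.

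Col4a6 was high in the 3 models on FVB. It stood at 98.7 at the lowest, 124 at the median and 176 CPM at the highest in MMTV-NEU, 91.5, 15.7, 89.6, 172 and 95.2 CPM in MMTV-PYMT and 47 and 43.9 CPM in KPB1-A. The highest BALB/c model was 2208 at 23.2 ± 6.48 CPM, n = 12, below both KPB1-A libraries but overlapping with replicate 2 of MMTV-PYMT, and 2336 was lowest at 0.0344, 0, 0.103, 0.0821 and 0.0136 CPM. Strain and model cannot be told apart in this pattern. The log2 difference was 5.91 ± 0.22, adjusted p = 2.48e-37 in MMTV-NEU and 5.38 ± 0.22, adjusted p = 2.74e-33 in MMTV-PYMT, and 4.26 ± 0.28 in KPB1-A (adjusted p = 1.07e-21).

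Col4a4 (chr1:82448423-82586849) and Col4a3 (chr1:82586921-82722059), the chains of the mature kidney filter, were low throughout. Col4a4 reached 9.72 at the lowest, 18.8 at the median and 25.3 CPM at the highest in MMTV-NEU (4.47 ± 0.15, adjusted p = 1.51e-40) and 2.8, 4.44, 13.3, 8.02 and 4.01 CPM in MMTV-PYMT, and at most 1.96 CPM (2224) as a mean elsewhere. Col4a3, which starts across the interval of 71 bases from Col4a4, averaged at most 0.431 CPM in any model, and its call in MMTV-PYMT (1.56 ± 0.32, adjusted p = 2.06e-05) rested on replicate 1, since without it the difference was 0.66 and did not pass. All 6 type IV genes were called in both MMTV-NEU and MMTV-PYMT, 4 higher and 2 lower in each, beside 34.0% higher and 28.4% lower of all genes tested in MMTV-NEU and 31.0% and 20.5% in MMTV-PYMT.

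Cartilage collagens were high in some models and near 0 in others. In KPB1-A all 7 rose (median log2 difference 3.55 against 0.06 over all genes tested, of which 24.9% rose), and in 2153 6 of 7 rose, beside 29.4%. In 2225 5 rose, beside 34.2%, and in 2224, 2336 and 2250 4 rose, beside 24.0% to 32.1%, with none lower in any of them. In 2208 and MMTV-NEU 4 rose and 2 fell (beside 29.4% and 24.7%, and 34.0% and 28.4%). The mean that each was set against includes T12, E0771 and 4T1, whose low levels pull it down. Summed over the class, 2153 stood at 572 CPM, below 2336 at 1636 CPM. None rose in T12, E0771 or 4T1, where 6, 5 and 4 fell (medians -4.72, -5.38 and -4.63 against -0.09, -0.11 and -0.08), beside 23.8%, 26.9% and 23.6% lower of all genes tested. With Col9a1 and Col9a2 held at the floor of 3 counts over a model whose libraries are all at 0, the median in KPB1-A was 3.39 and those of T12, E0771 and 4T1 did not move. Summed over the 7 genes the level was 3142 ± 292 CPM in MMTV-NEU (SD, n = 8), the highest, and 9.07 ± 2.57 CPM in T12 (n = 3), the lowest.

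Type IX collagen is a short chain trio that decorates fibrils, and its 3 genes did not move as a unit. Col9a1 (chr1:24177610-24252684) stood at 1415 at the lowest, 1918 at the median and 2279 CPM at the highest in MMTV-NEU, above every library of 2208 (258 at the lowest, 401 at the median and 736 CPM at the highest). In 2336, KPB1-A and MMTV-PYMT its means were 222, 227 and 272 CPM. It then dropped from 68.8 ± 17.5 CPM, n = 10 in 2225 to 0.771 ± 0.433 CPM, n = 7 in 9263, with 0.222, 0.348 and 0.522 CPM in E0771, 0.0768, 0.582, 0.187, 0.457 and 0.18 CPM in 4T1 and 0 counts in all 3 libraries of T12. At the summed depth of the 3 T12 libraries, 3 counts would be 0.0125 CPM, so the level in MMTV-NEU was at least 151554-fold higher, a bound that covers counting error only. Fitted log2 differences against a mean that includes a model at 0 are no bound and are not given for Col9a1 or Col9a2, and by edgeR Col9a1 was not called in 4T1, 9263 and E0771, nor Col9a2 in 4T1, 9263 and T12. In 4T1, limma and DESeq2 called 6 of 7 cartilage genes where edgeR called 4. Col9a1 took the largest share of its variance between models of all collagens (98.6% of the variance of log2 CPM over 82 libraries).

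Col9a2 (chr4:121039385-121055322) was highest in 2336 (427, 379, 449, 406 and 355 CPM), 2250 (294 ± 139 CPM, n = 11) and MMTV-NEU (292 ± 58.6 CPM, n = 8). It was at 0 counts in all 3 libraries of E0771, a floor of 0.0149 CPM, and at 0.036, 0 and 0 CPM in T12. In 9263 it averaged 4.05 ± 1.63 CPM, n = 7, below every library of the 9 models above it. Col9a3 (chr2:180597790-180622189) was highest in 2336 (1043, 981, 1085, 782 and 821 CPM, 3.84 ± 0.18, adjusted p = 3.79e-31) and 2225 (631 ± 93 CPM, n = 10), and low in E0771 (3.18, 3.11 and 4 CPM), 4T1 (1.5, 2.02, 1.79, 2.13 and 1.56 CPM) and T12 (2.11, 1.55 and 0.585 CPM). In contrast to its partners it was high in 9263 (219 at the lowest, 452 at the median and 559 CPM at the highest, 2.54 ± 0.17, adjusted p = 3.91e-22). In 9263, 1 type IX gene was therefore high while the other 2 were low.

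Col11a1 (chr3:114030540-114220718), a chain of the thin fibrils of cartilage, marked the FVB models. It stood at 326 at the lowest, 829.5 at the median and 1308 CPM at the highest in MMTV-NEU (5.17 ± 0.29, adjusted p = 8.70e-27), at 102, 7.72, 575, 1826 and 149 CPM in MMTV-PYMT (4.45 ± 0.30, adjusted p = 6.74e-22) and at 147 and 449 CPM in KPB1-A (3.55 ± 0.41, adjusted p = 2.51e-11). The difference of Col11a1 was 3.10 in MMTV-PYMT without its replicate 4 and 2.86 under limma, and 2.47 in KPB1-A without its replicate 2. Replicate 2 of MMTV-PYMT, the library with the least Col1a1, was lower than any library of 9263 (100.3 ± 24 CPM, n = 7), the next model. Means were 3.62 CPM in 4T1, 2.79 in T12 and 0.995 in E0771. Its partner Col11a2 varied less, from 3.79 CPM in E0771 to 16.6 and 54.5 CPM in KPB1-A (2.20 ± 0.35, adjusted p = 2.59e-07). The call in KPB1-A was lost without its replicate 2 (log2 difference 1.05).

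Col10a1, the collagen of enlarged cartilage cells near bone, was highest in KPB1-A (30.8 and 109 CPM, 4.54 ± 0.54, adjusted p = 6.06e-11, and 3.30 without replicate 2) and scattered widely in 2224 (2.43, 22, 68.2 and 10.6 CPM) and 9263 (2.32 at the lowest, 13.8 at the median and 51.5 CPM at the highest). Col2a1, the main cartilage collagen and read here after its values were seen, was highest in KPB1-A (139 and 259 CPM, 4.98 ± 0.44, adjusted p = 5.02e-16, and 4.39 without replicate 2) and 2153 (85 at the lowest, 128 at the median and 198 CPM at the highest, 4.26 ± 0.34, adjusted p = 5.83e-18). It averaged 1.59 CPM in MMTV-NEU, the model with the most Col9a1 and Col11a1.

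Of 13 other cartilage and bone cell genes tested, 5 rose and 1 fell in KPB1-A, beside 24.9% and 14.4% of all genes tested. In MMTV-PYMT 7 rose and 1 fell (beside 31.0% and 20.5%), and in 2224 5 and 0 (24.0% and 14.8%). The counts were 5 and 3 in MMTV-NEU (34.0% and 28.4%), 4 and 4 in 4T1 (25.5% and 23.6%) and 1 and 5 in T12 (24.4% and 23.8%). They were 4 and 7 in 2250 (32.1% and 27.7%) and 4 and 3 in E0771 (29.4% and 26.9%). The median log2 difference of these 13 genes was 0.91 in KPB1-A, 1.47 in MMTV-PYMT, -1.60 in T12 and -1.61 in 2250. Acan, the large cartilage proteoglycan, stood at 12.8 and 63.1 CPM in KPB1-A and averaged at most 0.343 CPM (2336) in the other 12 models. Matn1 averaged at most 0.0551 CPM in any model and was at 0 in all libraries of 2225, 2336 and MMTV-PYMT. Sox9, the transcription factor of cartilage formation, was 1.37 CPM in 2250 and 49.7 to 262 CPM elsewhere. The summed level of the 14 cartilage and bone markers in the table was 207 to 368 CPM in MMTV-NEU, 334 to 541 CPM in 4T1 and 114 to 142 CPM in T12. Their part in the collagen levels was not tested.
A gene from the Schwann cell list lined up with the models low in cartilage collagens. Of the 7 genes of that list, 0 rose and 5 fell in E0771, beside 29.4% and 26.9% of all genes tested. In T12 and in 4T1 1 rose and 3 fell, beside 24.4% and 23.8%, and 25.5% and 23.6%, so the list did not move as a unit. Sox10, a transcription factor of neural crest and mammary cells, averaged 0.156 CPM in E0771, 0.324 in T12 and 0.329 in 4T1 and 445 to 1126 CPM in the other 10 models. The model 9263 averaged 536 CPM of Sox10 and 0.771 CPM of Col9a1. Sox10 was picked out after its values were seen, and its part was not tested.

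Type VI collagen, which forms beaded filaments close to cells, was highest in E0771. There 4 of 6 rose and none fell (median 2.29 against -0.11, beside 29.4% higher of all genes tested), and in MMTV-NEU 4 fell and none rose, beside 28.4% lower. Col6a1 stood at 1774, 1281 and 1702 CPM in E0771, Col6a2 at 1015, 775 and 1119 CPM and Col6a3 at 1145, 680.2 and 1137 CPM. No library of any other model reached the lowest of these for Col6a1 or Col6a2, whereas for Col6a3 the highest library of 2208 stood at 770.6 CPM. The log2 differences were 2.97 ± 0.28, 2.43 ± 0.32 and 2.16 ± 0.27 (adjusted p = 5.39e-15, 4.08e-10 and 1.91e-10). The same 3 genes were lowest in MMTV-NEU (67.7, 69.5 and 81.4 CPM). Fibroblast marker sums were also highest in E0771 (1311 to 1848 CPM). Of the 12 fibroblast markers, however, 4 rose and 2 fell in E0771, with a median log2 difference of 0.16. Of all genes tested, 29.4% rose and 26.9% fell there. There 8 of 8 skeletal muscle markers rose (sums 534 to 3237 CPM) and 7 of 8 macrophage markers rose (sums 1669 to 3304 CPM), with none of either list at 0 throughout. The part of these markers was not tested. Col6a4, Col6a5 and Col6a6 averaged at most 1.76 CPM in any model.

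Fibril-associated collagens bind fibrils without forming them. Col12a1, a stress-responsive type, was highest in 4T1 (546, 539.9, 619, 384 and 481 CPM, 1.87 ± 0.35, adjusted p = 5.78e-06) and 2208 (420.3 ± 172 CPM, n = 12), as the type I genes were. Col14a1 was instead highest in 2336 (175, 109, 114, 316 and 578 CPM, 2.68 ± 0.31, adjusted p = 7.59e-12) and 9263 (161 at the lowest, 178 at the median and 296 CPM at the highest, 2.30 ± 0.28, adjusted p = 6.25e-11), which were also the highest models for Col4a1. Col16a1 varied least of the 3, from 111 ± 67.3 CPM, n = 8 in MMTV-NEU to 433 ± 120.1 CPM, n = 10 in 2225. Col20a1 was highest in 2250 (7.05 at the lowest, 11.6 at the median and 19.2 CPM at the highest, 2.08 ± 0.16, adjusted p = 1.28e-19), and Col19a1 and Col22a1 averaged at most 0.195 and 0.529 CPM.

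The short-chain types VIII are made by vessel and corneal cells. Col8a1 was highest in 2208 (208 ± 70.3 CPM, n = 12) and 4T1 (206 ± 21.8 CPM, n = 5). Col8a2 was highest in 9263 (83.6 at the lowest, 141 at the median and 222 CPM at the highest, 3.87 ± 0.27, adjusted p = 5.03e-21) and KPB1-A (62.6 and 157 CPM), so these chains had different top models.

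The multiplexins Col15a1 and Col18a1 sit at the basement membrane, and Col18a1 is the source of endostatin. Col18a1 (chr10:77052178-77166548) was highest in 2153 (1332 at the lowest, 2507 at the median and 3466 CPM at the highest, 2.64 ± 0.15, adjusted p = 1.10e-26) and 2208 (1566 ± 303 CPM, n = 12, 1.91 ± 0.13, adjusted p = 2.33e-22). It was lowest in MMTV-NEU (23.9 at the lowest, 36.7 at the median and 69.3 CPM at the highest, -3.82 ± 0.23, adjusted p = 4.21e-25) and MMTV-PYMT (86.2, 23.3, 52.3, 114 and 90.2 CPM), and no library of those models reached 2153 or 2208. Col15a1 was lowest in E0771 (34.4, 26.9 and 28.1 CPM, -2.02 ± 0.42, adjusted p = 2.49e-05) and otherwise averaged 72.2 to 184 CPM.

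Among transmembrane collagens, Col17a1 (chr19:47646344-47692094) anchors basal epithelial cells through hemidesmosomes. It stood at 461 and 234 CPM in KPB1-A (5.52 ± 0.33, adjusted p = 6.14e-24, and 4.86 without replicate 1), 116, 141, 144 and 191 CPM in 2224, 146 ± 40.5 CPM, n = 7 in 9263, 135 ± 43.9 CPM, n = 5 in 2336 and 82.4 CPM in 2225. It was under 1 CPM as a mean in 2208, 2153, MMTV-NEU and 2250, and lowest in 2250 (0.0888 at the lowest, 0.187 at the median and 0.62 CPM at the highest, -5.74 ± 0.46, adjusted p = 1.22e-18). The basal keratin Krt5 was 167 to 1206 CPM in the 5 high models and 0.223 to 2.49 CPM in the 4 low ones. Of 9 basal and myoepithelial markers, 5 to 7 rose in the 5 high models, beside 24.0% to 34.2% of all genes tested. In the 4 low models 2 or 3 rose (beside 29.4% to 34.0%) and 4 to 7 fell (beside 23.6% to 28.4%). In MMTV-PYMT 7 rose and 0 fell, beside 31.0% and 20.5%. Summed over the list, the median was 1481 CPM in MMTV-NEU and 1543 CPM in 2225. The part of these markers was not tested.
Col25a1, known from neurons and muscle innervation, was highest in 2208 (40.2 at the lowest, 63.6 at the median and 107 CPM at the highest, 4.71 ± 0.25, adjusted p = 1.93e-27) and 2153 (55.5 ± 16.8 CPM, n = 7) and lowest in T12 (0.012, 0.0126 and 0.0108 CPM). Col23a1 stood at 15.1, 14.5, 13.9, 64.2 and 40.1 CPM in 2336 (4.50 ± 0.37, adjusted p = 1.04e-17) and 16.6, 13.6, 7.14 and 13.8 CPM in 2224. Col13a1 stayed between 0.824 and 3.97 CPM as model means.

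Col7a1 (chr9:108953586-108984875), the anchoring fibril that ties skin epithelium to its base, was highest in 2336 and 4T1. It stood at 1324, 1272, 1383, 649 and 468 CPM in 2336 (2.84 ± 0.23, adjusted p = 7.88e-18), 691, 519.9, 695, 666 and 655 CPM in 4T1 (2.13 ± 0.25, adjusted p = 1.44e-11) and 2.21 at the lowest, 5.19 at the median and 23.1 CPM at the highest in MMTV-NEU (-4.76 ± 0.36, adjusted p = 6.81e-20). Col26a1 stood at 8.98, 8.05, 6.4, 6.5 and 29.3 CPM in 2336 (7.04 ± 0.56, adjusted p = 1.31e-18, and 6.37 without replicate 5) and averaged at most 2.7 CPM elsewhere, and Col28a1 averaged at most 1.51 CPM.

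How much of the variation lay between models differed by class. Over all genes tested, the median share of the variance of log2 CPM between models was 75.3%, with 58.5% and 85.7% at the quartiles. The median was 54.6% for fibrillar, 62.7% for beaded filament, 86.9% for cartilage and 92.3% for basement membrane collagens. Type I, III and V genes other than Col5a3 had 32.1% (Col3a1) to 56.9% (Col5a2) of their variance between models, with Col1a1 at 48.6%, while Col4a5 (96%), Col9a2 (98%), Col18a1 (94.2%) and Col25a1 (93.7%) were well above the median of all genes. The median SD within a model was 0.97 on the log2 scale for fibrillar genes against 0.50 for all genes tested. These shares are descriptions and depend on how many libraries each model has.

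**Figure D3:**
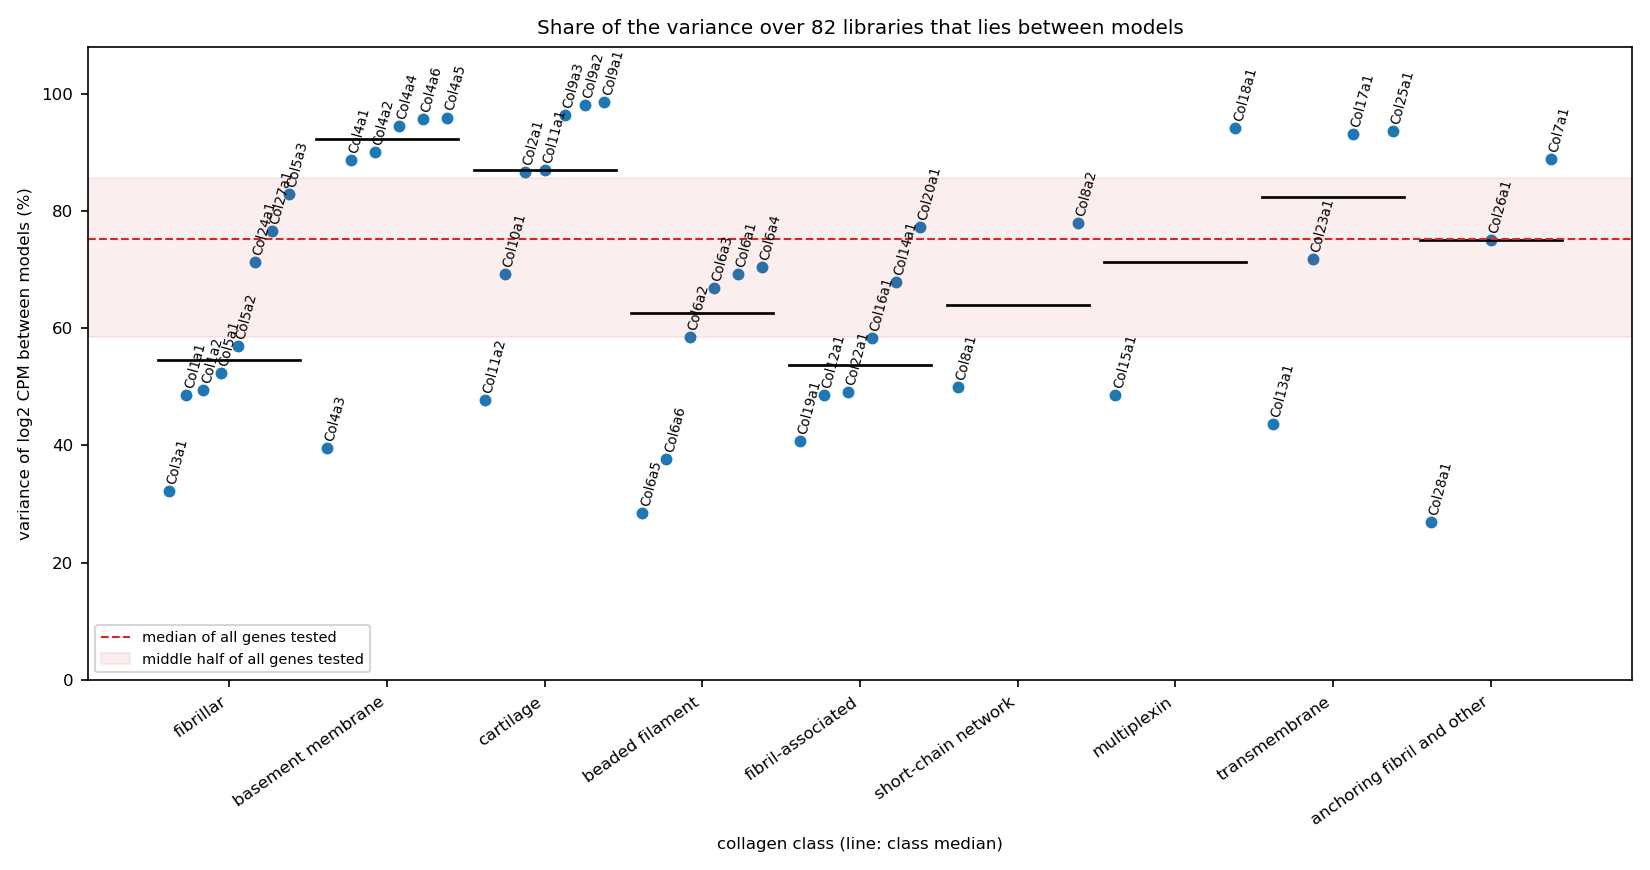
Share of the variance of log2 CPM over 82 libraries that lies between models (vertical axis, percent) for each collagen gene, by class, with class medians as lines, the median of all genes tested as a dashed line (75.3%) and their interquartile range shaded. Col3a1 lies at 32.1% and Col9a1 at 98.6%.

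Chains that are built into the same protein were compared per length of transcript, over libraries with at least 10 counts of both genes. Col1a1 over Col1a2 ran from 0.524 to 2.43 (median 1.29, 82 libraries), Col4a1 over Col4a2 from 1.04 to 2.37 (median 1.43) and Col6a1 over Col6a2 from 0.804 to 1.89 (median 1.02). From lowest to highest these 3 ratios differed 4.63-, 2.27- and 2.35-fold, although the levels differed several-fold. They still shifted between models. Col4a1 over Col4a2 was 2.13 to 2.37 in E0771 and at most 1.85 (9263) elsewhere. Col6a1 over Col6a2 was 1.34 to 1.45 in T12, 1.47 to 1.68 in E0771 and 1.44 to 1.78 in 4T1, and 1.89 and 1.15 in the 2 libraries of KPB1-A. The third type VI chain varied more, with Col6a3 over Col6a1 from 0.144 to 1.18. It was 0.144 to 0.271 in T12, 0.237 to 0.308 in 4T1 and 0.904 to 1.14 in 2153. Col5a1 over Col5a2 was 3.44 to 6.05 in E0771, and at most 1.38 (2224) in the other models. In 9263 it ran from 0.189 to 0.711.

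Other pairs, type IV ones among them, had wider ratios. Col4a5 over Col4a6 was 104 to 167 in 2224, 62.6 to 106 in 2153, 7.19 to 15.9 in 2208 and 1.26 to 2.06 in MMTV-NEU. Col4a4 over Col4a3 reached 20.4 to 78.4 in 4 libraries of MMTV-NEU and 1.27 to 1.97 in 3 of T12. In these libraries the genes on either side of the 71 bases were not expressed in proportion. Only 34 of 82 libraries had 10 counts of both, and Col4a3 averaged at most 0.431 CPM in any model. These ratios are therefore imprecise and leave out libraries with less Col4a3. Col9a1 over Col9a3 was 5.08 to 42.6 in MMTV-NEU and 0.000359 to 0.00243 in 6 libraries of 9263. Col11a1 over Col11a2 was 20.4 to 146 in MMTV-NEU and 0.0997 to 0.388 in E0771. Each ratio uses 1 annotated transcript length per gene, so its order among libraries is better founded than its size.

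**Figure D4:**
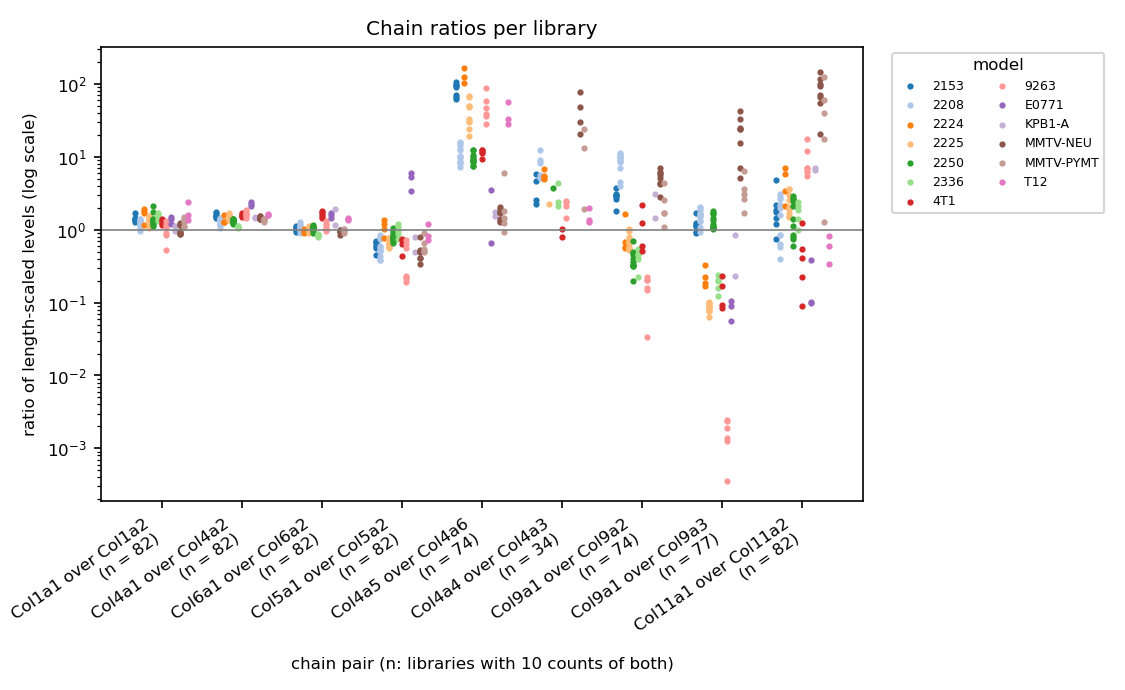
Ratio of length-scaled levels (vertical axis, log scale) for 9 pairs of collagen chains, 1 point per library with at least 10 counts of both genes, coloured by model. Col1a1 over Col1a2, Col4a1 over Col4a2 and Col6a1 over Col6a2 have medians of 1.29, 1.43 and 1.02 and stay between 0.524 and 2.43. In contrast, Col4a5 over Col4a6 runs from 0.654 to 167.

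Whether a collagen followed stromal markers from tumour to tumour was asked within the 6 models of at least 6 libraries, with 12 relations in all and permutation tests, exact below 10 libraries. Col1a1 rose with the mean log2 CPM of 12 fibroblast markers in 2225 (n = 10), with r = 0.91 (p = 5.20e-04, adjusted p = 0.00156) and rho = 0.903 (p = 8.30e-04, adjusted p = 0.00332) by permutation, and r was 0.882 without the 2 libraries farthest from the median marker score. In 2250 (n = 11) it gave r = 0.952 (p = 1.30e-04, adjusted p = 0.00119) and rho = 0.891 (p = 6.60e-04, adjusted p = 0.00332) by permutation, and 0.824 without the 2 farthest, 1 of them replicate 10, which stood apart. In MMTV-NEU (n = 8) the exact test gave r = 0.94 (p = 0.00119, adjusted p = 0.00286) and rho = 0.81 (p = 0.0218, adjusted p = 0.0523), and r was 0.805 without the 2 farthest, which stood well below the other 6. In 2208 (n = 12), r = 0.509 (p = 0.0918, adjusted p = 0.11) and rho = 0.483 (p = 0.116, adjusted p = 0.14) by permutation did not pass, and neither did 2153 (n = 7), where the exact test gave r = -0.332 (p = 0.474, adjusted p = 0.474) and rho = -0.286 (p = 0.556, adjusted p = 0.606). Without its 2 farthest libraries r in 2153 turned to 0.553, so that its sign rests on them.

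Col4a1 rose with 12 endothelial markers in 2250, with r = 0.892 (p = 4.20e-04, adjusted p = 0.00156) and rho = 0.791 (p = 0.00563, adjusted p = 0.0169) by permutation, and 0.617 without the 2 farthest libraries. In 2153 the exact test gave r = 0.835 (p = 0.02, adjusted p = 0.0401) and rho = 0.821 (p = 0.0341, adjusted p = 0.063), and 0.97 without the 2 farthest. In MMTV-NEU it gave r = 0.76 (p = 0.0287, adjusted p = 0.0491) and rho = 0.762 (p = 0.0368, adjusted p = 0.063) by the exact test, and 0.439 without the 2 farthest, so that the relation rests on them. In 2208, r = 0.594 (p = 0.0424, adjusted p = 0.0636) and rho = 0.497 (p = 0.104, adjusted p = 0.138) by permutation did not pass, and r was 0.133 without the 2 farthest. In 2225, r = -0.529 (p = 0.119, adjusted p = 0.13) and rho = -0.152 (p = 0.683, adjusted p = 0.683) by permutation did not pass either, and without the 2 farthest libraries r turned to 0.338, so that its sign rests on them.
The libraries of 9263 (n = 7) formed 2 clusters, so an r there cannot be told apart from the step between the clusters. For Col1a1 the exact test gave r = 0.981 (p = 1.98e-04, adjusted p = 0.00119) and rho = 1 (p = 3.97e-04, adjusted p = 0.00332), and r was 0.956 without the 2 farthest. For Col4a1 the exact test gave r = -0.716 (p = 0.0653, adjusted p = 0.087) and rho = -0.786 (p = 0.048, adjusted p = 0.072), which did not pass, and r was -0.768 without the 2 farthest. The 3 libraries with endothelial marker sums of 286 to 621 CPM held 1797, 2116 and 1712 CPM of Col4a1, and the 4 with sums of 124 to 146 CPM held 2658, 3755.2, 6269.6 and 2981 CPM. For Col1a1 the same 3 libraries held 2202, 4307 and 2535 CPM and the other 4 621, 291, 169 and 358 CPM. Within 9263, then, the libraries rich in stromal markers had more Col1a1 and less Col4a1 than the other 4, with no overlap in either gene. This comparison of the clusters was not itself tested.

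**Figure D5:**
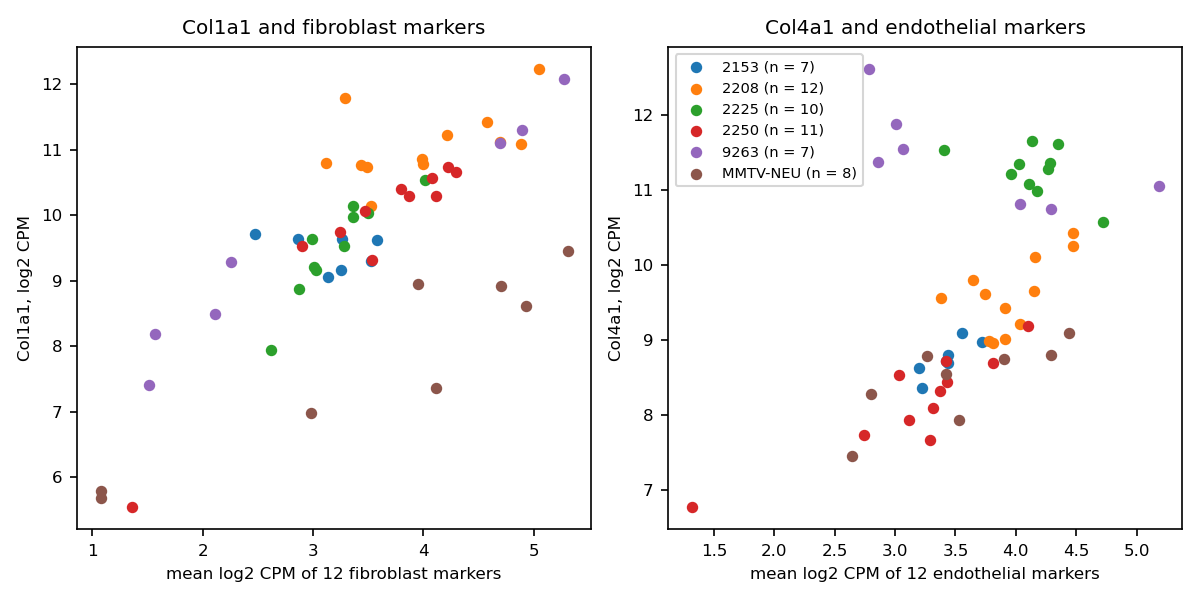
Log2 CPM of Col1a1 against the mean log2 CPM of 12 fibroblast markers (left) and of Col4a1 against 12 endothelial markers (right), 1 point per library of the 6 models with at least 6 libraries. Points of 2250 rise together in both panels (r = 0.952 and 0.892), and those of 9263 lie in 2 clusters.

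Genes that make, cut, bind or degrade collagen were read from lists chosen with earlier results of these data known. Of the procollagen cleavage and crosslinking genes, 8 of 13 rose and 1 fell in 4T1 (median 1.17 against -0.08, beside 25.5% higher and 23.6% lower of all genes tested), and 2 of 13 rose and 7 fell in MMTV-NEU (median -0.75 against -0.02, beside 34.0% higher and 28.4% lower of all genes tested). Other models did likewise: 7 rose and 1 fell in T12 (median 1.54 against -0.09, beside 24.4% and 23.8%), and 0 rose and 8 fell in 2225 (median -0.68 against 0.02, beside 34.2% and 26.8%). Bmp1, the protease that removes the tail of procollagen, reached 771.4 ± 87.4 CPM in 4T1 (3.05 ± 0.19, adjusted p = 1.01e-23). Adamts14, which removes the head, was 1.28 ± 0.699 CPM in MMTV-NEU (-4.24 ± 0.30, adjusted p = 2.03e-21), whereas its relative Adamts3 was 21.3 ± 13.3 CPM there (3.85 ± 0.25, adjusted p = 2.45e-23) and 0.185 ± 0.169 CPM in 4T1 (-3.53 ± 0.51, adjusted p = 1.54e-08). The 2 proteases thus changed in opposite directions in the model with the least Col1a1.

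Collagen degradation genes were mostly high in 4T1 and low in MMTV-NEU, as the fibrillar genes were. In numbers, 8 of 9 rose and 1 fell in 4T1 (median 1.69 against -0.08, beside 25.5% higher and 23.6% lower of all genes tested), and 0 of 9 rose and 9 fell in MMTV-NEU (median -1.58 against -0.02, beside 34.0% higher and 28.4% lower of all genes tested). The collagenase Mmp13 was 124 ± 110.2 CPM in 4T1 (3.38 ± 0.39, adjusted p = 1.32e-11), 133 ± 110.3 CPM in 2208 (3.48 ± 0.32, adjusted p = 1.94e-15) and 2.38 ± 1.78 CPM in MMTV-NEU (-2.88 ± 0.55, adjusted p = 5.39e-06). Mmp14, a membrane-bound collagenase, was 40 ± 21.9 CPM in MMTV-NEU (-2.68 ± 0.26, adjusted p = 3.64e-15). Macrophage marker sums were 1456 to 2577 CPM in 4T1 and 188 to 649 CPM in MMTV-NEU, and their part was not tested.

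Of the chain modification and folding genes, 4 of 20 rose and 11 fell in MMTV-NEU (median -0.39 against -0.02, beside 34.0% higher and 28.4% lower of all genes tested), and 10 of 20 rose and 6 fell in 2336 (median 0.34 against -0.05, beside 30.2% higher and 25.4% lower of all genes tested). Fkbp10, a folding enzyme of type I collagen, was 10.3 ± 5.81 CPM in MMTV-NEU (-2.60 ± 0.28, adjusted p = 2.87e-13) and 136 ± 28.2 CPM in 2336 (1.44 ± 0.24, adjusted p = 2.89e-07). Colgalt2, which adds sugar to collagen lysines, was 39.5 ± 7.47 CPM in 2336 (4.88 ± 0.17, adjusted p = 2.85e-38), and Serpinh1, the collagen chaperone, 807 ± 134 CPM (1.04 ± 0.16, adjusted p = 1.08e-07).

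Laminins and other basement membrane partners rose with Col4a1 and Col4a2 in 2336, where 10 of 14 rose and 2 fell (median 0.62 against -0.05, beside 30.2% higher and 25.4% lower of all genes tested). The summed level of 10 pericyte and smooth muscle markers was 2485 to 3881 CPM in 2336, above every library of the other models (at most 2022 CPM, in 9263), with Acta2 alone at 2538 CPM, and 3 of the 10 rose. None of the 10 was at 0 throughout 2336, and their part in the levels of type IV collagen and laminin was not tested. The laminin chain Lama1 stood at 168 ± 60.2 CPM (5.17 ± 0.27, adjusted p = 2.01e-28) and Lamc1 stood at 1228 ± 193 CPM (1.83 ± 0.12, adjusted p = 4.03e-22). In 2250, the model with the least Col4a1, 10 fell and 2 rose, beside 27.7% and 32.1%. In E0771, 7 fell and 3 rose, beside 26.9% and 29.4%, with Lamb3 among those that fell (0.597 ± 0.424 CPM, -5.88 ± 0.58, adjusted p = 1.77e-14).

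Of the fibril-binding proteoglycans and glycoproteins, 8 of 12 rose and 1 fell in 2208 (median 0.84 against -0.01, beside 29.4% higher and 24.7% lower of all genes tested), and 0 of 12 rose and 5 fell in 2250 (median -0.40 against -0.05, beside 32.1% higher and 27.7% lower of all genes tested). Comp, which binds types I, II and IX collagen in cartilage, was 181 ± 136 CPM in MMTV-NEU (7.29 ± 0.34, adjusted p = 1.31e-31), the model with the most Col9a1, and 10.7 ± 10.4 CPM in 2208 (2.86 ± 0.26, adjusted p = 1.66e-15). Fn1, the fibronectin gene, was 12975 ± 2223 CPM in 4T1 (4.17 ± 0.30, adjusted p = 2.76e-20) and 140.1 ± 46.2 CPM in E0771 (-2.91 ± 0.68, adjusted p = 1.80e-04). Of the collagen receptors, 6 of 11 rose and 3 fell in 4T1 (median 1.01 against -0.08, beside 25.5% higher and 23.6% lower of all genes tested), and 5 of 11 rose and 3 fell in E0771 (median 0.56 against -0.11, beside 29.4% higher and 26.9% lower of all genes tested). Ddr2, a receptor kinase for fibrillar collagen, was 215 ± 33.9 CPM in E0771 (2.72 ± 0.29, adjusted p = 8.00e-13) and 14.8 ± 3.94 CPM in 2208 (-1.46 ± 0.24, adjusted p = 2.40e-07), a model high in Col1a1.

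MMTV-NEU and MMTV-PYMT, on the same strain and under the same promoter by name, were compared directly. Of 44 collagens 5 were higher in MMTV-NEU and 8 lower, beside 12.5% and 15.1% of all genes tested. Col9a1 was higher in MMTV-NEU (log2 difference 2.80 ± 0.31, adjusted p = 8.35e-11), as were Col9a2 (1.26 ± 0.33, adjusted p = 0.00202) and Col4a4 (1.43 ± 0.28, adjusted p = 3.40e-05). Col17a1 was lower (-4.93 ± 0.55, adjusted p = 4.12e-11, 0.918 against 87.7, 1.1, 2.35, 19.4 and 18.7 CPM, and a difference of -3.66 without replicate 1 of MMTV-PYMT), as were Col7a1 (-3.00 ± 0.38, adjusted p = 2.15e-09) and Col24a1 (-2.88 ± 0.60, adjusted p = 1.04e-04). For Col4a6 and Col11a1 the log2 differences were 0.49 ± 0.36 and 0.66 ± 0.51 and did not pass.

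T12 and E0771, both low in epithelial markers and in cartilage collagens, differed in 8 collagens higher and 8 lower in T12, beside 20.3% and 22.1% of all genes tested. Col4a5 was higher in T12 (32.8, 31.5 and 23.1 against 1.16, 0.241 and 0.328 CPM, log2 difference 5.68 ± 0.54, adjusted p = 1.61e-14, and 6.67 without replicate 1 of E0771), as was Col27a1 (4.18 ± 0.79, adjusted p = 1.13e-05). Col6a1 was lower in T12 (-1.80 ± 0.56, adjusted p = 0.00653), and so were Col6a2, Col6a3 and Col6a4. Col5a3, high in both, was lower in T12, with a log2 difference of -1.05 ± 0.43 (adjusted p = 0.0414), a call lost under DESeq2 size factors, limma, without the filter and without 5 of the 6 libraries in turn. Without replicate 3 of E0771, 9 collagens were called in place of 16.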

How the data were processed

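RNA from 82 cryopreserved tumours was sequenced as mRNA libraries. STAR, SAMtools, Picard, Salmon and the mm10 build are named, without versions, per the submitters' processing notes, and the strandedness of counting is not given in the sources used here. The authors deposited a table of estimated counts per gene, not normalized, of which 85.5% were whole, and the values were rounded here. In their second deposited table, a normalized signal, the upper quartile (percentile 75) of each library's counts above 0 had been set to 1000 and zeros to 1, as a check of the values found (100% within a relative 1e-06). It was used for 1 alternative only.

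Genes were filtered with filterByExpr (minimum count 10, total 15), scaled by TMM and fitted with edgeR 4.0.16 (robust quasi-likelihood, 69 residual degrees of freedom, R 4.3.3) over all models. P-values were adjusted by Benjamini-Hochberg over 22847 genes. Standard errors were taken from the F statistic, as the absolute log2 difference over its root. Correlations used log2 CPM (prior count 2) and 2-sided permutation with scipy 1.17.1. Levels per kilobase use GENCODE M21 principal transcripts. The fit was tested on simulated counts in which few genes changed, in 4T1 only, with the same spread for every gene. That setting is simpler than these data and does not check the scaling between models that differ in most genes. Alternatives were DESeq2 1.42.0, its size factors, no filter, limma 3.58.1 on the normalized table, and leaving out libraries.

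The collagens, classes and other lists were chosen with earlier results of these data known. Genes given in full were up to 4 per class with the highest level per kilobase in their top model and up to 2 with the largest ratio of the highest to the second highest model, plus members of the chain pairs compared. Col27a1, Col2a1 and Sox10 are marked as picked after their values were seen. Genes named from the lists that make, cut, bind or degrade collagen were chiefly called members with large absolute log2 differences. They are therefore extremes and not typical of their lists. The markers Epcam, Acan, Matn1, Sox9, Krt5 and Acta2 were named outside these rules. Sequences are from RefSeq (GRCm38.p6), cut at annotated exons. No samples were left out, and numbers of libraries limit precision more than depth does, except for genes at a few counts.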

Additional observations from a re-analysis of the deposited data

Results flagged for a closer look

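Within models of 4 to 10 libraries, 60 sets of values of named collagens were examined for a single library far from the others, by the gap to its nearest neighbour over the range of the set on the log2 scale, and 5 were picked out. Chance picks out about 1 in 20 sets.

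In MMTV-PYMT, replicate 1 held 1.25 CPM of Col4a3, a type IV chain, against 0.286 CPM in the next library. Col4a6 in replicate 2 of MMTV-PYMT stood at 15.7 CPM, where the next lowest library held 89.6 CPM. The same replicate 2 had the lowest fibroblast marker sum of its model at 83.8 CPM. In MMTV-NEU, Col11a1 stood at 326 CPM in replicate 1 and at 745 CPM in the next lowest library. In 4T1, Col7a1 stood at 519.9 CPM in replicate 2 and at 655 CPM in the next lowest. In 2336, replicate 5 held 29.3 CPM of Col26a1, and the next highest library 8.98 CPM.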

How the results depend on the processing

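No direction reversed for the 104 differences of single genes under the alternatives run, and the 12 correlations kept their sign under DESeq2 size factors. Without the 2 libraries farthest from the median marker score, r changed sign for Col1a1 in 2153 (-0.332 to 0.553) and for Col4a1 in 2225 (-0.529 to 0.338). By DESeq2, by its size factors, without the filter and by limma on the authors' normalized table each of the 16 counts of collagens and 13 counts of a class was within 1.5 times its value. Leaving out 1 library at a time changed a count by more than that for 2 results, KPB1-A (16 collagens, 10 to 14 without 1 library, the lowest without replicate 2) and T12 against E0771 (16 collagens, 9 to 15, the lowest without replicate 3 of E0771); the cause was not tested, though fewer libraries were fitted. The counts ran from 16 to 18 in 2224, 19 to 23 in 2336, 17 to 24 in MMTV-PYMT and 12 to 16 in T12. Of the single differences, 5 lost their call under limma (Col8a1 in 9263, with 0.24, among them), 3 without the filter, 1 under DESeq2 and 1 under its size factors, and 12 values did so when a library was left out. Leaving out replicate 10 of 2250 or replicate 12 of 2208, which has another kind of title, was chosen after seeing the data and gave 25 and 26 collagens. No paired analysis was possible because replicate numbers were given in accession order and name libraries only. Col9a1 and Col9a2 at 0 counts are limited by depth to the floors given above.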
